A study of Homo sapiens with 12 samples.

Results

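Set side by side here are the 4 libraries that carry replicate number 1 in the labels and the 8 that carry number 2 or 3, of 12 RNA-seq libraries in all. Libraries were assigned by the number in their column names, but this comparison and its gene lists were chosen with earlier results of these data known. All libraries are polyA RNA of hTERT-RPE1, human retinal pigment epithelial cells that telomerase has made immortal, labelled wild type. Cells received 20 nM siRNA overnight and were collected 48 hours after treatment. The 4 libraries numbered 1 are 1 each of an siRNA against the kinetochore gene CENPF (siCENPF), an siRNA against the cell-cycle transcription factor gene FOXM1 (siFOXM1), both siRNAs together (siCENPF+siFOXM1) and a negative-control siRNA (siNeg). The 8 others are 2 of each kind, so every siRNA stands on both sides, and the siRNA group was a term of the fit. Nothing in the labels says what the number marks. The 4 libraries numbered 1 may share 1 culture, day or preparation, nothing states that libraries came from separate cultures, and every p-value therefore measures only the spread between these libraries. The siRNA sequences are not given in the sources used here.

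Type I interferon is a secreted signal made by cells that sense foreign or misplaced nucleic acid. It binds a receptor on the same or a neighbouring cell, the receptor's kinases activate transcription factors such as STAT2, which joins IRF9 to switch on a large set of antiviral genes through a short DNA motif, the interferon-stimulated response element. The genes it induces include the sensors and transcription factors of the same pathway.

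The groups were close in depth apart from 2 libraries. Reads in genes numbered 13671250 to 16079871 in the libraries numbered 1 and 13681255 to 35411230 in the others, where siNeg number 3 and siCENPF number 3 were the deepest. Mitochondrially encoded genes took 2.68% to 2.93% of reads in the libraries numbered 1, against 2.05% to 2.46% in the others, so the groups did not overlap in this share, whose part in the results was not tested. CENPF stood at 893 and 1360 normalized counts in the 2 libraries numbered 1 with siCENPF and at 827 to 1360 in the 4 others with it, and FOXM1 at 729 and 732 in the 2 libraries numbered 1 with siFOXM1 and at 491 to 822 in the 4 others with it. Of 18 markers of differentiated retinal pigment epithelium 7 passed the filter on low values. RPE65 and TYR were listed at 0 FPKM in all 12 libraries, while the vimentin gene VIM and the keratin genes KRT8 and KRT18 were well measured and did not pass the test. They belong to a list of epithelial and fibroblast-like markers with 8 members tested, 0 called and 1 above 0. Its median log2 difference, number 1 minus the others, was -0.18. With the numbers fitted as 3 levels, 1 member was called higher and 5 lower, against 16.5% and 14.5% of all genes.

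The 3 markers that came with the description of an interferon-active state are given first; they were named with results of these data known, so their levels describe that state and do not test it. OAS1, which makes an antiviral second messenger when it binds double-stranded RNA, had 2672 normalized counts with siCENPF, 849 with siFOXM1, 969 with both siRNAs and 1883 with siNeg in the libraries numbered 1, against 21.4 to 90.4 (median 40.0) in the other 8. Every library numbered 1 stood above every other library, and the log2 difference was 4.97 (SE 0.42, limma adjusted p = 0.000163). IFIT1, which binds viral RNA that lacks the host cap methylation, had 10091, 2994, 3471 and 7430 normalized counts in the same order, against 110 to 349 (median 183). The log2 difference was 4.84 (SE 0.33, limma adjusted p = 4.46e-05). ISG15, a ubiquitin-like protein that is attached to other proteins, had 3886, 1295, 1368 and 3179, against 99.8 to 234 (median 119), a log2 difference of 3.98 (SE 0.29, limma adjusted p = 6.11e-05). All 3 markers were thus high in each of the 4 libraries numbered 1, siNeg included, and low in each of the other 8. OAS1 lies on chromosome 12 (112906777 to 112932185, plus strand), IFIT1 on chromosome 10 (89392546 to 89406486, plus strand) and ISG15 on chromosome 1 (1001138 to 1014541, plus strand), in hg38 as the deposited tables give it.

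**Figure D1:**
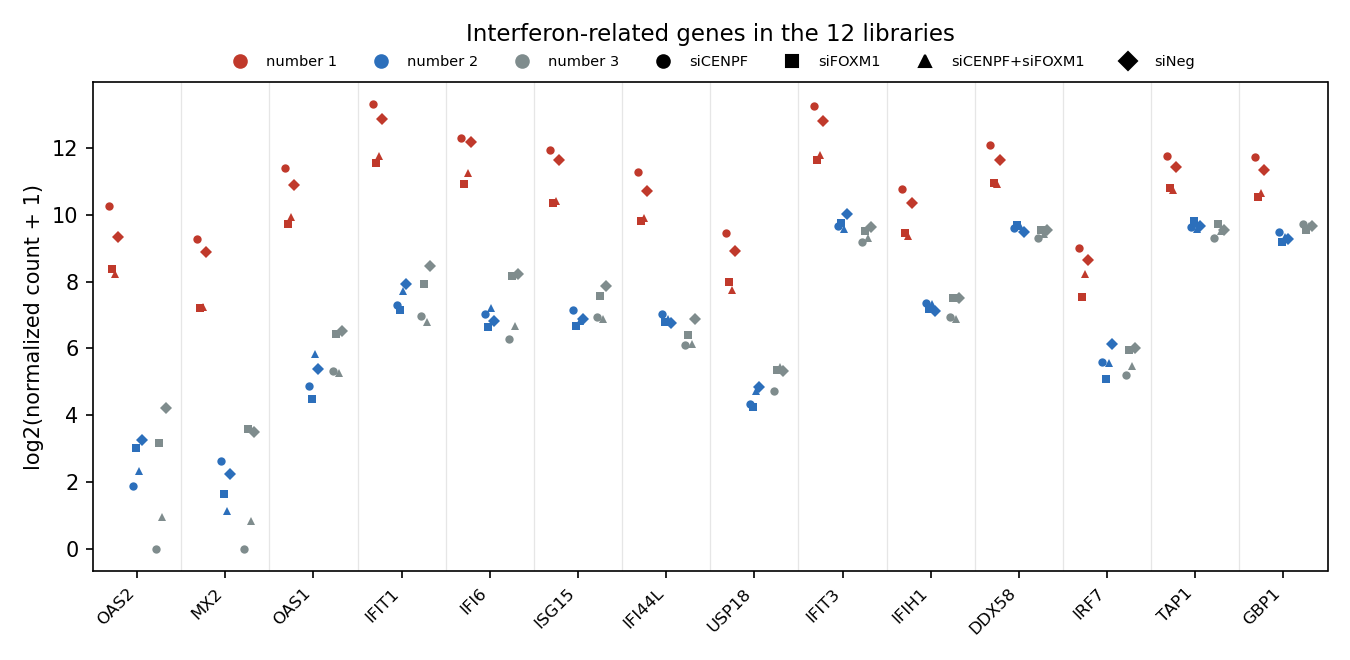
Each point is 1 library: the vertical axis is log2(normalized count + 1), colours mark the replicate number and symbols the siRNA. The 4 points of number 1 stand above those of numbers 2 and 3 for every gene shown, from OAS2, with a log2 difference of 6.69, to GBP1, with 1.57.

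Over all genes, 1346 of 14857 genes tested passed an adjusted p of 0.05 (9.06%), of which 750 were higher (5.05%) and 596 lower (4.01%) in the libraries numbered 1. The median log2 difference over all genes was -0.00. In the table of FPKM the same test called 375 higher and 578 lower genes, so that 39.3% of the calls there were higher, against 55.7% among normalized counts. The groups did not overlap for 637 genes that were higher (4.29%) and 451 that were lower (3.04%), together 7.32%. Number 1 ranked above both other libraries in 4 of 4 siRNA groups for 10.2% of genes and below both for 8.8%, and 45 of 48 antiviral effectors ranked above in all 4. Fitting the numbers as 3 levels, a replicate block, raised the counts to 2451 higher (16.5%) and 2147 lower (14.5%), together 30.9%. Each library numbered 1 carried weight in the counts. Without siCENPF number 1 the fit called 191 higher and 104 lower genes, without siNeg number 1 it called 223 and 156, without siFOXM1 number 1 it called 277 and 172, and without siCENPF+siFOXM1 number 1 it called 378 and 273. Without siFOXM1 number 2 the counts were 471 and 351, without siCENPF+siFOXM1 number 2 they were 469 and 357, and without siNeg number 2 the count of lower genes was 394.

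The largest differences were in interferon-related genes. Among 107 genes called more than 2-fold higher, 59 stand in the interferon-related lists other than interferon ligands (55.1%). Those lists hold 117 of the 14857 genes tested (0.787%). Among the 37 called more than 4-fold higher, 27 stand in those lists (73.0%). None of the 32 genes called more than 2-fold lower does, and 0 genes were called more than 4-fold lower. All of the 15 highest genes named by rule belong to these lists: OAS2, MX2, OAS1, IFIT1, IFI6, ISG15, IFI44L, USP18, IFI44, IFIT2, OAS3, IFIT3, IFIH1, IRF7 and HELZ2. The rule leaves out genes with a mean below 100 normalized counts, with overlapping groups or without an official-style symbol. Of all 23 genes called more than 8-fold higher, 18 stand in the lists (78.3%). The plot of difference against gene level shows the same split between a narrow band of most genes and a spread of antiviral genes above it.

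**Figure D2:**
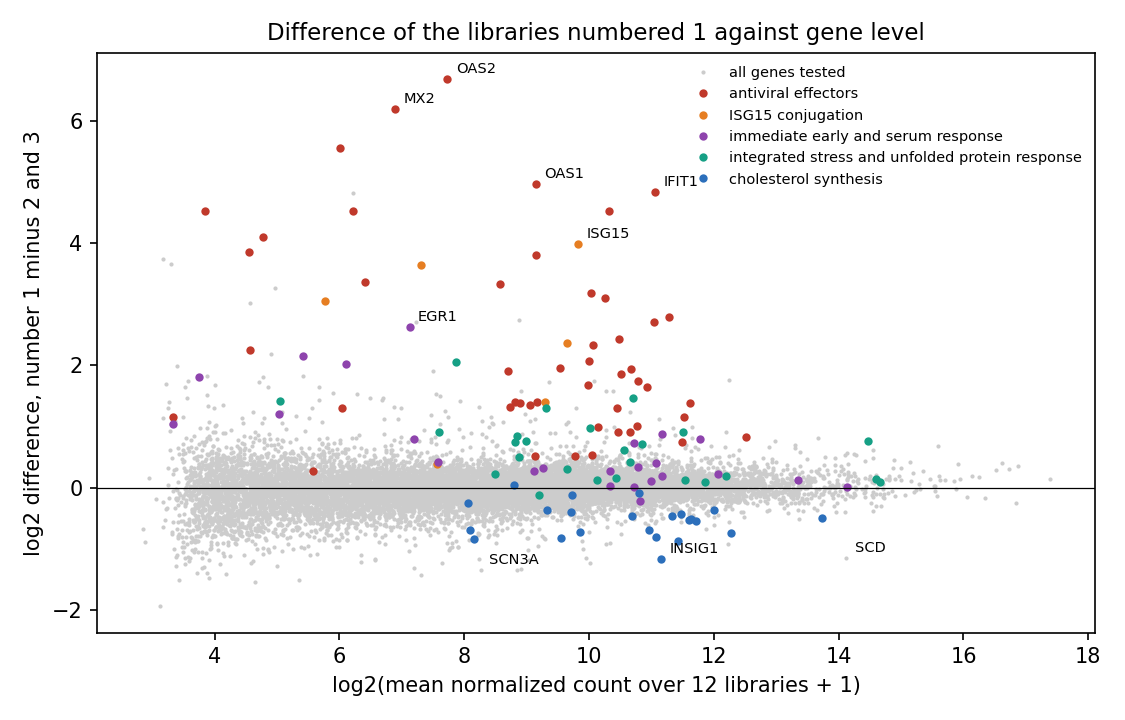
Each point is a gene: the horizontal axis is log2(mean normalized count over 12 libraries + 1) and the vertical axis the log2 difference of the libraries numbered 1 minus those numbered 2 and 3, with 5 lists in colour. Antiviral effectors reach 6.69, while no gene lies below -1.95 and the median over all genes is -0.00.

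Antiviral effectors were the group that rose most widely. Of 51 members 48 were tested, and 44 rose and 0 fell, against 5.05% and 4.01% of all genes. The median log2 difference was 1.89. OAS2, a second oligoadenylate synthetase gene, had 1220, 328, 296 and 642 normalized counts with siCENPF, siFOXM1, both siRNAs and siNeg in the libraries numbered 1, against 0 to 17.5 (median 5.56) in the others, a log2 difference of 6.69 (SE 0.62, limma adjusted p = 0.000163). With libraries at 0 its size depends on the scale: it was 5.13 with a pseudocount of 10, 2.20 on the FPKM table and 8.11 by DESeq2 on recovered reads. MX2, a dynamin-like GTPase that blocks retroviral nuclear entry, had 614, 146, 150 and 467, against 0 to 11.0 (median 2.94), and a log2 difference of 6.20 (SE 0.61, limma adjusted p = 0.000163). MX2 ranged from 4.42 to 7.47 over 28 alternatives and lost its call against number 3 alone. Both genes were close to undetected outside the libraries numbered 1. Those libraries were enough to pass the filter on low values, so the place of both genes in the test can follow from their being high there. IFI6, a mitochondrial membrane protein gene, had 5070, 1915, 2446 and 4628, against 76.2 to 299 (median 121), a log2 difference of 4.54 (SE 0.40, limma adjusted p = 0.000199). IFI44L had 2502, 899, 957 and 1686, against 67.9 to 129 (median 108), a log2 difference of 3.82 (SE 0.25, limma adjusted p = 3.36e-05). None of these 4 genes had overlapping groups, which the rule that named them requires. The RNA-editing gene ADAR had a log2 difference of 0.83, and the kinase gene EIF2AK2, which halts translation on double-stranded RNA, had 1.38.

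4 antiviral effectors did not pass the test. MX1, the partner of MX2 in the same gene cluster, had 22.4, 13.02, 6.41 and 19.3 normalized counts in the libraries numbered 1, against 3.50 to 9.43 (median 5.23), a log2 difference of 1.16 (limma adjusted p = 0.0542, and 0.0234 with the replicate block). TRIM22 and LGALS3BP had log2 differences of 0.98 and 0.54. 3 members fell outside the table of normalized counts. CMPK2 was listed at 0 FPKM in all 12 libraries, and RSAD2, the viperin gene, had FPKM of 0.158 with siCENPF, 0 with siFOXM1, 0.0780 with both siRNAs and 0.0523 with siNeg in the libraries numbered 1, against 0 to 0.00480 in the others. RTP4, the third, had 12, 4, 3 and 19 reads with siCENPF, siFOXM1, both siRNAs and siNeg in the libraries numbered 1, against 0 to 5 in the others, so its groups overlapped. MX1, CMPK2 and RSAD2 are usually counted among the most inducible interferon genes, and here they were listed at 0 or at low levels, while OAS2 and MX2 were well measured in the libraries numbered 1.

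Promoter sequences of 7 genes of the interferon lists are shown because the complex that holds STAT2 and IRF9 binds a direct repeat of GAAA. Each line gives the 200 bases before the start of the gene in RefSeq on GRCh38.p14, read 5′ to 3′ on the gene's strand, with matches to GAAA, any 2 bases and GAAA again on either strand in capitals, overlapping matches run together.
ISG15 (chr1:1013297-1013496, plus strand): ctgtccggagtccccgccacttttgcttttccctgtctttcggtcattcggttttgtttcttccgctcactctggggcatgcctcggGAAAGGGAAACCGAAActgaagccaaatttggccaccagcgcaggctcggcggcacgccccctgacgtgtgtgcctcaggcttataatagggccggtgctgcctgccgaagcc
IFIT1 (chr10:89392423-89392622, plus strand): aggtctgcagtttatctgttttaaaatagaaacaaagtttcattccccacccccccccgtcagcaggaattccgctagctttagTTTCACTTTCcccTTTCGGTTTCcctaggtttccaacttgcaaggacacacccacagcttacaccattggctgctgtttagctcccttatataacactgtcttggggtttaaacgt
IFI6 (chr1:27672193-27672392, minus strand): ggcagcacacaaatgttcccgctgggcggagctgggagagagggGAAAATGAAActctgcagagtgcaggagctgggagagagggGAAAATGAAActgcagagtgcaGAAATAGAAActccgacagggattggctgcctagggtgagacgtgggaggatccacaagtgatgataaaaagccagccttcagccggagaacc
IFIT3 (chr10:89327797-89327996, plus strand): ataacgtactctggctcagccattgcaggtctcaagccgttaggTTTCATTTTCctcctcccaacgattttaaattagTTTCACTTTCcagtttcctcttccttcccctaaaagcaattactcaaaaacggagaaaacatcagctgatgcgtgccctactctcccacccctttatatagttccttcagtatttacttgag
IFIH1 (chr2:162318685-162318884, minus strand): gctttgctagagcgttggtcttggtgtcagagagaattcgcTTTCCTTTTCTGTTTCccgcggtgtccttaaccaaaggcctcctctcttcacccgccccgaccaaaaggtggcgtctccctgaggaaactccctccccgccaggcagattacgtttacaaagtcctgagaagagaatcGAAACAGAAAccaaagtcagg
TAP1 (chr6:32853705-32853904, minus strand): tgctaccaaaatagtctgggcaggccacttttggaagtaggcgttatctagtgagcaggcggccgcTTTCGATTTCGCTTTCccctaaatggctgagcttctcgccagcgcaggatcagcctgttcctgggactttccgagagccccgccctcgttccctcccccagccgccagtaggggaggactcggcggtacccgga
OAS1 (chr12:112906762-112906961, plus strand): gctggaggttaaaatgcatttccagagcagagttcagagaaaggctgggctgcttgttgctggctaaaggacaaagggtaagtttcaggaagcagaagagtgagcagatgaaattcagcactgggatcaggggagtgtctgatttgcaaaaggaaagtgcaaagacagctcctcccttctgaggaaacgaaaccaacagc
In 300-base windows, from 250 before to 50 after the start, this repeat was found in 25 of the 37 tested antiviral effectors that have a promoter in the table (67.6%). It was found in 33 of 74 genes called more than 2-fold higher (44.6%), in 2 of 16 called more than 2-fold lower (12.5%), in 293 of 10525 tested genes (2.78%) and in 996 of all 27305 promoters in the table (3.65%). OAS1, with no match in these letters, differed by as much as IFIT1, whose promoter holds 2. The OAS1 sequence does hold gaaacgaaa near its end, a repeat with closer spacing that the search did not cover. The matches are those of letters only.

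The ISG15 conjugation system rose nearly as a whole. 5 of 6 members were called higher, against 5.05% of all genes, with a median log2 difference of 2.71. They were ISG15 itself, the ligases HERC5 and HERC6, the conjugating enzyme UBE2L6 and USP18, which removes ISG15 and also restrains the interferon receptor. USP18 had 697, 254, 214 and 478 normalized counts in the libraries numbered 1 with siCENPF, siFOXM1, both siRNAs and siNeg, against 17.9 to 42.3 (median 26.5) in the others. Its log2 difference was 3.65 (SE 0.33, limma adjusted p = 9.20e-05), HERC5 had 3.06, HERC6 2.36 and UBE2L6 1.40. UBA7, the activating enzyme, had 0.38 and did not pass.

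The sensors of nucleic acid that could be tested rose, while most adaptors and kinases that carry their signal did not pass the test. 9 of 14 tested members were called higher and 0 lower, against 5.05% and 4.01% of all genes. The sensor genes CGAS, AIM2 and ZBP1 and the adaptor gene MYD88 were too low to be tested, with 1 read each for CGAS and AIM2. IFIH1, which encodes the long double-stranded RNA sensor MDA5, had 1751, 703, 651 and 1295 normalized counts in the libraries numbered 1, against 116 to 182 (median 153) in the others, a log2 difference of 2.75 (SE 0.22, limma adjusted p = 7.03e-05). DDX58, which encodes RIG-I, had 4362, 1984, 1924 and 3202, against 629 to 826 (median 740), a log2 difference of 1.87 (SE 0.19, limma adjusted p = 0.000363). Neither gene's groups overlapped, which for IFIH1 the rule that named it requires. DHX58, TLR3, DDX60 and IFI16 were also higher, with log2 differences of 1.44, 1.46, 1.73 and 1.13. TICAM1, the adaptor of TLR3, was the exception among the adaptors, with 0.40. The 5 members that did not pass, MAVS, TMEM173 (STING), TBK1, IKBKE and TRAF3, had log2 differences from -0.04 to 0.08.

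The same division held in the receptor pathway. Of 16 tested members of receptor and JAK-STAT signalling 3 were called higher and 1 lower, against 5.05% and 4.01% of all genes. STAT2 and IRF9 were among those called higher. STAT2 had a log2 difference of 1.23 (SE 0.16) and IRF9 of 1.65 (SE 0.31). IRF9 was low in both groups, at 38.8 to 61.0 normalized counts in the libraries numbered 1 and 9.40 to 26.5 in the others, and it overlaps another gene on its strand in the annotation. The receptor genes IFNAR1, IFNAR2, IFNGR1 and IFNGR2 and the kinase genes JAK1, JAK2 and TYK2 had log2 differences from -0.08 to 0.14 and did not pass. SOCS3, a feedback inhibitor of cytokine receptors, was the 1 member that fell, with 340, 281, 293 and 299, against 358 to 487 (median 420), a log2 difference of -0.45 (SE 0.09, limma adjusted p = 0.0121). Among 6 interferon regulatory factor genes IRF7, which drives interferon gene transcription, rose alone in the test, with a log2 difference of 2.72 (SE 0.22, limma adjusted p = 3.28e-05), and IRF3 had -0.19 and IRF1 0.07.

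Most interferon genes gave few or no reads, and the members differed in where reads fell. IFNB1, the gene of interferon beta, gave 13 reads with siCENPF, 2 with siFOXM1, 2 with both siRNAs and 4 with siNeg in the libraries numbered 1, and was listed at 0 in the other 8. These are whole reads worked out from FPKM. Relative to depth this is at least 18.96-fold higher, taking 3 reads over the 8 libraries as the floor, and the floor covers counting error only. The library with the most IFNB1 reads, siCENPF, was also the highest of the 4 for OAS1, IFIT1 and ISG15. IFNL1 had 1 read and IFNL2 4 reads, each in a single library numbered 1, and both were listed at 0 in the others. IFNG and IFNK were listed at 0 in all 12 libraries. IFNA1, an interferon alpha gene, had 14 reads over the 4 libraries numbered 1 and 47 over the other 8, with reads in all 12. IFNE, the interferon epsilon gene and the 1 ligand that was tested, had 74.9, 64.3, 69.1 and 31.3 normalized counts in the libraries numbered 1, against 31.7 to 81.95 in the others, a log2 difference of 0.27 that did not pass (limma adjusted p = 0.547).

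Genes of antigen presentation and of the response to interferon gamma rose in part. 6 of 18 tested members of MHC class I presentation were called higher and 0 lower, and 13 were with the replicate block. Over all genes 5.05% were called higher, and 16.5% with the replicate block. The count of 6 was 3 without siCENPF number 1 or siNeg number 1. TAP1, a subunit of the peptide transporter, had 3458, 1780, 1694 and 2770 normalized counts in the libraries numbered 1, against 635 to 896 (median 782), a log2 difference of 1.58 (SE 0.17, limma adjusted p = 0.000414). TAP2, NLRC5, PSMB8, PSMB9 and HLA-C were called higher too, with log2 differences of 0.91, 1.12, 0.47, 1.04 and 0.41. HLA-C lost its call under 12 of 29 alternatives and PSMB8 under 6. PSMB8, PSMB9 and TAP1 overlap each other or an antisense gene in the annotation, HLA genes resemble each other, and no source used here says whether strand was used in counting, so reads of such neighbours cannot be told apart. B2M, the invariant chain, had 0.23 and did not pass. Of 9 tested genes that respond chiefly to interferon gamma 4 were called higher: GBP1 with 1.57, GBP5 with 1.24, WARS with 0.80 and GBP3 with 0.59. GBP4 had 1.82 but did not pass (limma adjusted p = 0.119). CIITA, the gamma-responsive master gene of MHC class II, had -0.03.

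Few inflammatory cytokines and NF-kappaB targets passed the test. Of 14 tested chemokines and cytokines IL8 (log2 difference 1.42, SE 0.35) and IL6 (0.93, SE 0.20) were called higher, with limma adjusted p of 0.0373 and 0.0129, and 9 were with the replicate block. The median of the 14 was 0.52, and 13 were above 0. Over all genes 5.05% were called higher, 16.5% with the replicate block, and 7387 of 14857 were above 0. IL8 lost its call under 11 of 29 alternatives, among them leaving out any 1 library of number 1 or number 2, and IL6 under 4 of 27. CCL5, a chemokine gene, had FPKM of 0.195, 0.0440, 0.0795 and 0.0187 with siCENPF, siFOXM1, both siRNAs and siNeg in the libraries numbered 1 and was listed at 0 in the other 8. CXCL10 had FPKM of 0.184 with siCENPF and 0.0563 with both siRNAs in the libraries numbered 1 and was listed at 0 in the other 10 libraries. Of 18 NF-kappaB targets CFLAR and NFKB2 were higher and BCL3 lower (a call lost under 13 of 29 alternatives), and the list's median was 0.04. Of 19 leukocyte markers 2 were tested, PTPRC had at most 0.0260 FPKM, and CD3E and MS4A1 were listed at 0 in all libraries. The summed level of the 2 tested leukocyte markers ran from 58.3 to 113 normalized counts in the libraries numbered 1, against 74.8 to 164 in the others, and CSF1R, one of the pair, was lower with a log2 difference of -0.98, a call lost under 16 of 27 alternatives, edgeR among them.

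**Figure D3:**
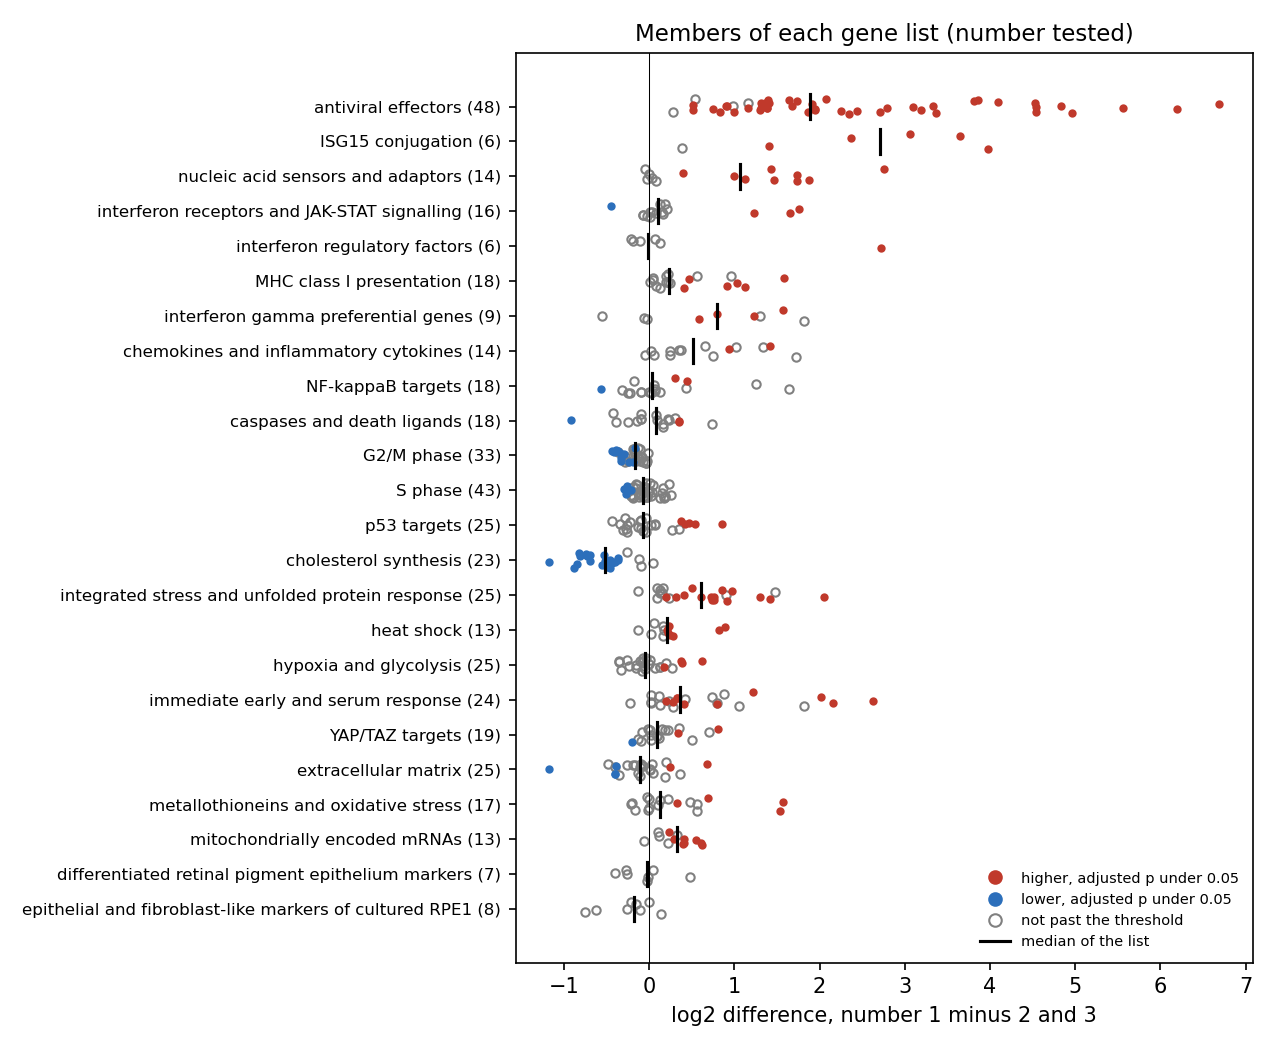
Each point is 1 tested member of a list, placed by its log2 difference of the libraries numbered 1 minus those numbered 2 and 3; filled points passed an adjusted p of 0.05 and bars are list medians. Antiviral effectors (median 1.89) and ISG15 conjugation (2.71) lie farthest right and cholesterol synthesis (-0.52) farthest left.

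Outside all lists, 38 genes were called more than 2-fold higher, and those named here were chosen after their values were seen. Absence from the lists does not show that a gene is unrelated to interferon. BATF2, a transcription factor gene, had a log2 difference of 3.27, HSPA6, an inducible heat shock gene, 3.02, and ANGPTL4, a secreted inhibitor of lipoprotein lipase, 1.91. RP1-71H24.1, also higher, lies antisense to the OAS gene cluster, and reads of the pair cannot be told apart without strand.

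Outside the interferon lists, genes of the integrated stress and unfolded protein response rose. 15 of 25 members were called higher and 0 lower, against 5.05% and 4.01% of all genes, with a median log2 difference of 0.61. ASNS, asparagine synthetase, had 1320, 945, 901 and 1020 normalized counts in the libraries numbered 1 with siCENPF, siFOXM1, both siRNAs and siNeg, against 258 to 533 (median 447) in the others, a log2 difference of 1.30 (SE 0.18, limma adjusted p = 0.00174). HERPUD1, a factor of protein degradation at the endoplasmic reticulum, had 1838, 1339, 1377 and 1577, against 586 to 962 (median 809), a log2 difference of 0.97 (SE 0.13, limma adjusted p = 0.000841). XBP1, a transcription factor of the unfolded protein response, had 2306, 1886, 1846 and 1786, against 997 to 1493 (median 1316), a log2 difference of 0.61. All 3 genes were higher in each library numbered 1 than in any other. ATF3 had the largest difference of the list, 2.05 (SE 0.47), and ATF4, which is controlled mainly at translation, had 0.10. The count of 15 was 7 without siCENPF number 1 and 9 without siNeg number 1.

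Genes of the immediate early and oxidative stress responses also rose in part. Of 24 immediate early genes 10 were called higher and 0 lower (19 higher with the replicate block), with a median of 0.37. The share called higher over all genes was 5.05%, and 16.5% with the replicate block. EGR1, a zinc-finger factor induced within minutes of growth factor or stress signals, had 420, 336, 211 and 267 normalized counts in the libraries numbered 1, against 15.3 to 82.5 (median 57.5), a log2 difference of 2.62 (SE 0.44, limma adjusted p = 0.00753). FOSB had 228, 94.6, 93.4 and 124, against 14.5 to 59.96 (median 28.2), a log2 difference of 2.02 (SE 0.39, limma adjusted p = 0.0111). Both were separate between the groups, while MYC and CYR61 of the same list had 0.02 each. The list's count was 1 without siCENPF number 1, 2 without siNeg number 1 and 6 without siFOXM1 number 1, siCENPF+siFOXM1 number 1, siNeg number 2 or siFOXM1 number 2. HMOX1, the heme oxygenase gene, had 1456, 539, 547 and 1007, against 212 to 344 (median 298), a log2 difference of 1.58 (SE 0.22, limma adjusted p = 0.00200), and 4 of 17 genes of its list were called higher. HMOX1 lost its call against number 3 alone. The median of its list was 0.32 against number 2 and 0.002 against number 3. Of 13 heat shock genes 7 were called higher, led by HSPA1A and HSPA1B at 0.90 and 0.82, a near-identical pair whose reads can be split between them. The heat shock count was 2 without siCENPF number 1, 3 without siNeg, siFOXM1 or siCENPF+siFOXM1 number 1 or siNeg or siFOXM1 number 2, and 4 without siCENPF+siFOXM1 number 2.

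Cholesterol synthesis was the list that fell most widely. 19 of 23 tested members were called lower and 0 higher, against 4.01% and 5.05% of all genes, with a median log2 difference of -0.52. INSIG1, which holds the sterol-sensing complex in the endoplasmic reticulum and is itself a target of SREBP, had 1301, 1150, 1285 and 1089 normalized counts in the libraries numbered 1, against 1528 to 3917 (median 2801), a log2 difference of -1.17 (SE 0.22, limma adjusted p = 0.0119). DHCR7, the last enzyme of the pathway, had 1249, 1539, 1567 and 1298, against 1707 to 3146 (median 2585), a log2 difference of -0.81 (SE 0.10, limma adjusted p = 0.000403). Both genes were lower in each library numbered 1 than in any other, which for INSIG1 the rule that named it requires. The fatty acid desaturase genes SCD and FADS2, named by size and in no list, were lower as well, with log2 differences of -1.16 (SE 0.22) and -0.92 (SE 0.14). SCD had 9064, 10500, 10382 and 7992, against 12294 to 31102 (median 22854). The count of 19 was 10 without siCENPF number 1 or siFOXM1 number 1 and 12 without siCENPF+siFOXM1 number 1.

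**Figure D4:**
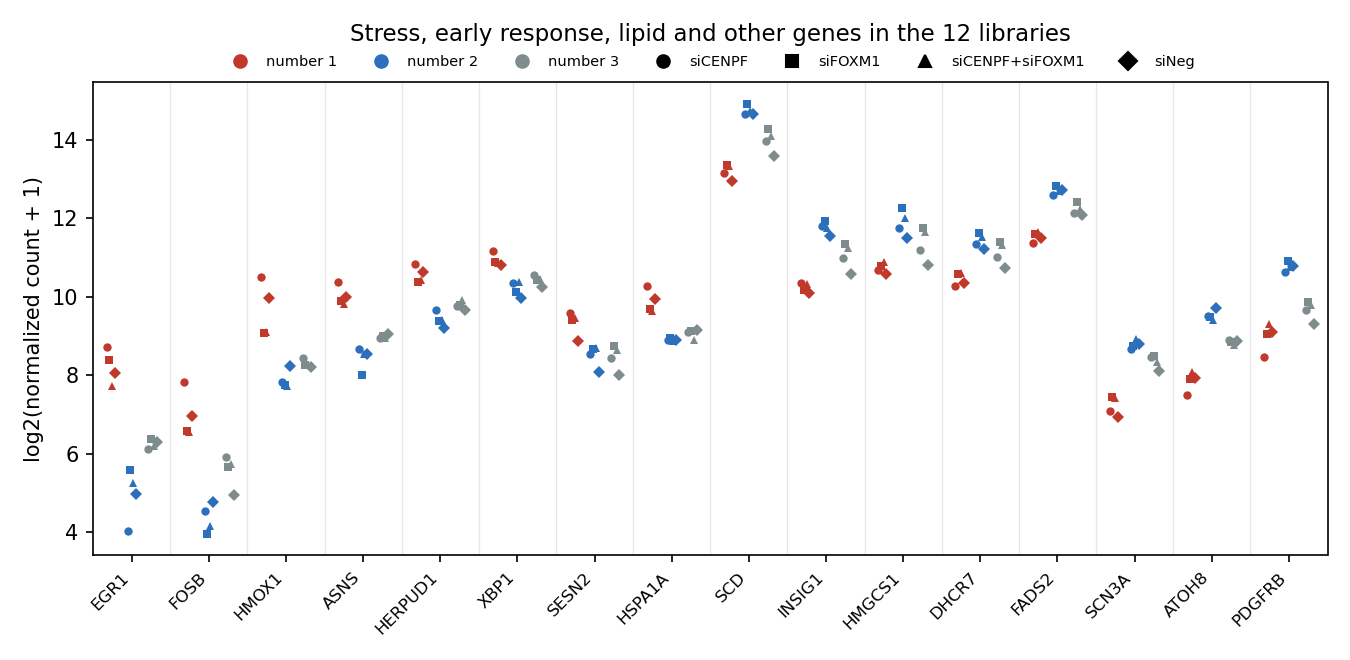
Each point is 1 library: the vertical axis is log2(normalized count + 1), colours mark the replicate number and symbols the siRNA. On average number 1 is highest for EGR1 to HSPA1A and lowest for SCD to PDGFRB, with number 3 between numbers 1 and 2 for most of these genes; for INSIG1 the difference to numbers 2 and 3 together is -1.17.

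Of the other genes that fell, few shared a list. SCN3A, a sodium channel gene, had 135, 175, 170 and 121 normalized counts in the libraries numbered 1, against 275 to 483 (median 384), a log2 difference of -1.35 (SE 0.14, limma adjusted p = 0.000122). ATOH8, a transcription factor gene, had 178, 239, 270 and 244, against 434 to 841 (median 577), a log2 difference of -1.34 (SE 0.21, limma adjusted p = 0.00430). SMAD6, an inhibitor of BMP signalling, had a log2 difference of -0.94 (SE 0.14) and TNFRSF10D, a decoy receptor for the death ligand TRAIL, -0.92 (SE 0.15). PDGFRB, a growth factor receptor gene, had -1.24 and lost its call under 17 of 29 alternatives. The remaining genes named by size were APCDD1L, KRT81, LXN, SEMA6B, PCDH18, PLXNA4 and TM7SF2, at -1.04 to -0.84. SEMA6B lost its call under 11, LXN under 9, TM7SF2 under 7 and PLXNA4 under 5 of 29 alternatives. TM7SF2 is also a member of the cholesterol synthesis list above. G2/M phase genes were slightly lower: 11 of 33 were called lower and 0 higher, and 33 of 33 had a difference below 0, with a median of -0.17 and 27 called lower with the replicate block. Over all genes 5.05% were called higher and 4.01% lower, and 14.5% were called lower with the replicate block. Of all 14857 genes 7387 had a difference above 0. KIF11, a mitotic motor gene, had 3535, 3984, 3707 and 3760, against 4117 to 4912 (median 4333), a log2 difference of -0.23 (SE 0.05, limma adjusted p = 0.0118). The count of 11 was 0 without siCENPF number 1 or siNeg number 1, 3 without siFOXM1 number 1 or siCENPF+siFOXM1 number 1, and 7 without any 1 library of number 2. Of 25 p53 targets 5 were called higher and 0 lower, with a median of -0.08: SESN2 (0.85), GADD45A (0.53), AEN (0.47), MDM2 (0.42) and PLK3 (0.37). Of 43 S phase genes 5 were called lower and 0 higher, of 25 hypoxia and glycolysis genes 4 higher and 0 lower, and of 25 extracellular matrix genes 2 higher and 4 lower. The medians of these lists had opposite signs against numbers 2 and 3: 0.06 and -0.23 for S phase, -0.20 and 0.16 for p53 targets, -0.17 and 0.10 for hypoxia and glycolysis, and -0.31 and 0.06 for extracellular matrix. Between numbers 2 and 3 alone 36 of 43 S phase genes differed, all lower in number 2. Mitochondrially encoded mRNAs were higher for 8 of 13 genes, with a median of 0.32 (5 genes without siCENPF number 1 or siNeg number 1), and fewer cells, or less RNA in each cell, cannot be told apart in bulk RNA for any of these lists.

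Libraries numbered 2 and 3 were not alike, and the lists differed in where number 3 stood. Against number 2 alone, with 3 levels of the number in the fit, the libraries numbered 1 differed in 6316 genes (42.5%; 22.2% higher and 20.3% lower), and against number 3 alone in 2052 genes (13.8%; 7.82% higher and 5.99% lower). Both comparisons share the libraries numbered 1. For antiviral effectors the median log2 difference was 1.86 against number 2 and 1.80 against number 3, and for ISG15 conjugation 2.54 and 2.87. For cholesterol synthesis it was -0.62 and -0.43, for integrated stress genes 0.72 and 0.50, and for immediate early genes 0.48 and 0.28. Number 2 against number 3 was added after these values were seen: 4981 genes differed (33.5%; 16.2% higher and 17.3% lower in number 2), among them 4 of 48 antiviral effectors (median -0.01), 18 of 23 cholesterol genes, all higher in number 2 (median 0.32), 15 of 25 integrated stress genes (2 higher, 13 lower), and 16 of 24 immediate early genes (1 higher, 15 lower). Genes called in the pooled fit are partly those with a small difference between numbers 2 and 3, which counts there as spread. The list medians by library place the cholesterol, stress and immediate early lists of number 3 between numbers 1 and 2.

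**Figure D5:**
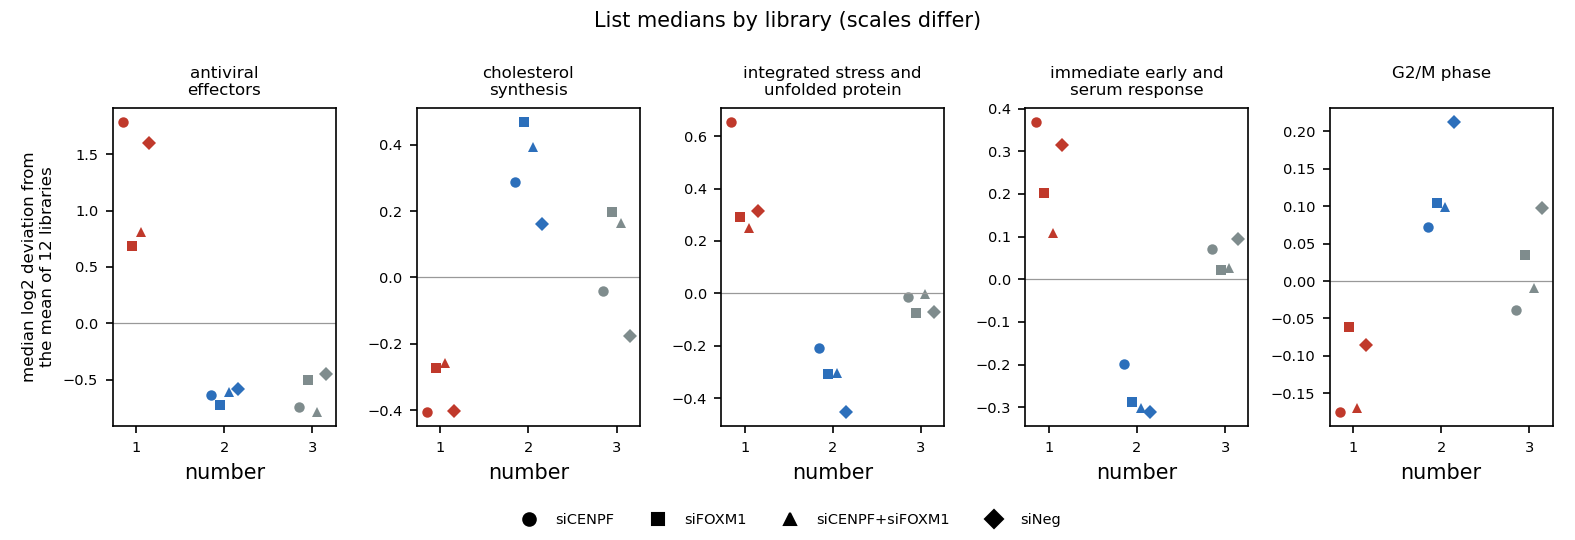
Each point is the median over a list's tested members of log2(normalized count + 1) minus the gene's mean over 12 libraries, by replicate number, with a symbol per siRNA and a scale per panel. For antiviral effectors the 4 libraries numbered 1 lie between 0.69 and 1.78 and the other 8 between -0.78 and -0.45, while for cholesterol synthesis number 3 lies between numbers 1 and 2 for each siRNA.

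Within a siRNA group the comparison rests on 1 library numbered 1, which is assumed to vary like the others. The fit called 85 genes with siCENPF (0.572%; 0.559% higher and 0.0135% lower), 17 with siFOXM1 (0.114%), 23 with both siRNAs (0.155%) and 50 with siNeg (0.337%). Of these calls 55, 17, 23 and 40 were genes of the interferon lists. Without 1 library of number 2 or 3 the counts could fall: to 56 with siCENPF without siCENPF number 2, to 22 and 25 with siNeg without siNeg number 2 and number 3, to 12 and 8 with both siRNAs without its own number 2 and number 3, and to 3 with siFOXM1 without its own number 2. Leaving out siNeg number 2 or number 3 also gave 13 with both siRNAs and 6 with siFOXM1, and leaving out siCENPF number 2 or number 3 gave 10 with siFOXM1. Over the 59 interferon-list genes above, a set chosen on the pooled difference so that positive values follow from the choice, the median log2 difference within a group was 2.64 with siCENPF, 1.34 with siFOXM1, 1.51 with both siRNAs and 2.09 with siNeg. The interaction of this difference with siNeg rests on 1 library numbered 1 per group. Its spread comes from numbers 2 and 3, which differed from each other in 33.5% of genes. It therefore cannot decide whether the difference varied with the siRNA. For antiviral effectors the median difference minus that within siNeg was 0.52 with siCENPF, -0.68 with siFOXM1 and -0.58 with both siRNAs. Over all genes these medians were 0.002, -0.004 and -0.009.

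Within the libraries numbered 1, 57 of the 59 genes were highest with siCENPF, against 27.4% of all genes tested. Of the 59 genes 58 were higher in both libraries without siFOXM1 than in both with it, against 20.8% of all genes tested. The 59 were chosen for being high in these libraries, and these are counts of genes over single libraries. Relative to siNeg, the median log2 value in number 1 was 0.32 with siCENPF, -0.83 with siFOXM1 and -0.77 with both siRNAs. In number 2 these medians were -0.03, -0.19 and -0.08, and in number 3 they were -0.24, -0.01 and -0.17. Each value in number 1 compares single libraries. A term for the 2 libraries numbered 1 that received siFOXM1, added after this order was seen, called 0 genes without the replicate block (354 at an unadjusted p under 0.05; edgeR 0) and 64 with it (0.431%), of which 62 were lower (0.417%) and 2 higher (0.0135%). With the block 22 of 48 antiviral effectors were called, and all 48 had a value below 0, with a median of -0.86. Over all genes 7600 of 14857 had a value below 0, with a median of -0.005. The term was fitted to the libraries in which the order was seen, so it describes that order and does not test it. The same term for siCENPF called 0 genes in both fits.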

How the data were processed

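PolyA RNA of 12 libraries of hTERT-RPE1 cells was sequenced. Per the submitters' processing notes, bcl2fastq, Trimmomatic, TopHat, edgeR and build hg38 were used, while the sources used here give no version, strand setting or normalization method. The main table holds normalized counts deposited by the authors for 14862 genes, a signal scaled to similar library sums. The authors also deposited FPKM for 60279 genes and CPM tables.

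Libraries numbered 1 were compared with those numbered 2 and 3 on log2(normalized count + 1), with a siRNA term, by limma 3.58.1 (trend and robust) in R 4.3.3, for genes with at least 10 normalized counts in 3 libraries, at a Benjamini-Hochberg adjusted p of 0.05. Log2 differences are on that scale and understate changes of low genes. CPM and FPKM gave whole reads for 100% of values (tolerance 0.01 reads), on which edgeR 4.0.16 and DESeq2 1.42.0 were run as alternatives.

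Libraries with the same number deviated together from their group means (r from 0.272 to 0.639 over 18 pairs, against -0.51 to 0.0248 for 36 pairs of other numbers), so the numbers pair the samples, and a replicate block with 3 levels was fitted beside the main design. The members and lists were chosen with earlier results of these data known. Named genes are the targets, the 3 markers, the 15 highest and 15 lowest genes by log2 difference among called genes with a mean of at least 100 normalized counts and no overlap, and up to 5 members per list by smallest adjusted p; others named were chosen after their values were seen. The authors' tables gave 14202 of the symbols and GENCODE 29 gave 618. Results for some named genes are not reported here.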

Additional observations from a re-analysis of the deposited data

Results flagged for a closer look

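Of 104 groups of values checked over 52 genes, 2 had 1 library far from the others, where chance alone gives about 5% of groups. MDM2 stood at 2003 normalized counts with siCENPF among the 4 libraries numbered 1. GBP3 stood at 1415 with siCENPF+siFOXM1 number 2 among the 8 libraries numbered 2 and 3.

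In the FPKM table, outside the main measurement, IFNB1 had 21 reads over the 4 libraries numbered 1 and 0 over the other 8. RSAD2 had 25 reads over the libraries numbered 1 and 1 over the others.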

How the results depend on the processing

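Of 117 named calls none changed direction, but many were lost: 46 without siCENPF number 1, 42 without siNeg number 1, 36 without siFOXM1 number 1, 24 without siCENPF+siFOXM1 number 1, 65 without the siFOXM1 and siCENPF+siFOXM1 groups, 78 without the siCENPF and siCENPF+siFOXM1 groups, 22 by limma without trend and robust, and 15 of 109 on the FPKM table. OAS1, IFIT1 and ISG15 stayed called in all 29 alternatives. Genes higher and lower numbered 404 and 361 by limma without trend and robust, 2451 and 2147 with the replicate block, 3102 and 2857 against number 2 alone, 1437 and 1142 against number 3 alone, 145 and 21 without the siFOXM1 and siCENPF+siFOXM1 groups, and 83 and 13 without the siCENPF and siCENPF+siFOXM1 groups. Without both deep libraries, an alternative chosen after seeing the data, they numbered 1169 and 1061, and the FPKM table gave 375 higher genes. Leaving out 1 library gave 191 to 975 higher and 104 to 808 lower genes, 10 to 19 cholesterol genes lower and 7 to 16 integrated stress genes higher. Without the siFOXM1 groups these lists had 0 and 8 calls, and without the siCENPF groups 3 and 1, with fewer samples in the fit. Within siRNA groups leaving out 1 library gave 56 to 82 calls with siCENPF, 3 to 15 calls with siFOXM1, 8 to 24 calls with siCENPF+siFOXM1 and 22 to 46 calls with siNeg. With the replicate block 64 genes passed the added siFOXM1 term. The cause of the other shifts was not tested. Depth limits the interferon ligands, which rest on few reads.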
